A study of Mus musculus with 6 samples.

Results

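The genes described here encode subunits of 3 machines of the mitochondrial inner membrane: complex II (succinate dehydrogenase), complex III (the cytochrome bc1 complex) and ATP synthase. They were taken as the protein-coding genes whose GENCODE M21 symbol begins with Uqcr or Atp5, or is Sdha, Sdhb, Sdhc, Sdhd or Cyc1, provided that their FPKM averaged 0.5 or more. FPKM is the number of fragments per kilobase of exon, scaled by a factor for each library. Of 31 gene IDs that carry such a symbol, 30 were kept out of 14149 genes that reached the same level: 4 for complex II, 9 for complex III and 17 for ATP synthase. The ID left out is a second Atp5o entry, listed at 0 FPKM in all 6 libraries. The lowest gene kept, Atp5s, averaged 6.58 FPKM, so no member lay near the limit of 0.5.

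RNA was sequenced from ventricles of mouse hearts at stage E12.5, in 3 LSD1-CKO libraries (genotype LSD1-CKO, a conditional knockout of Kdm1a, which encodes the histone demethylase LSD1) and 3 control libraries (genotype CTL). The labels name neither the Cre driver, the deleted exons nor the strain, and do not say whether the 3 samples of a genotype are separate embryos or litters. The p-values below therefore describe the spread between these samples, some of which may be technical. In bulk RNA of this kind, fewer cells of a type and less RNA per cell cannot be told apart.

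Complex II oxidises succinate in the TCA cycle and passes the electrons to ubiquinone. Complex III moves them on from ubiquinone to cytochrome c and pumps protons as it does so. ATP synthase lets the protons flow back through a rotating ring of c subunits and uses the rotation to make ATP. Complex II is built from nuclear genes alone, whereas complex III takes cytochrome b from the mitochondrial genome and ATP synthase takes its subunits a and 8 from there. The working heart muscle is among the tissues richest in these complexes, and the embryonic heart is still building up its mitochondria at this stage.

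The nuclear genes of these complexes are known to share promoter elements for NRF1, for ETS family factors such as GABPA, for YY1 and for estrogen-related receptors. RefSeq windows (build GRCm38.p6) that run from 250 bases before to 50 bases after a start site were matched to 23 of the 30 genes by symbol, and 7 had no match (Sdhc, Uqcrc2, Cyc1, Uqcrb, Uqcrq, Atp5mpl and Atp5a1). Exact letters were searched on both strands. The NRF1 letters GCGCATGCG were present for 5 of the 23 genes, or 21.7%, against 1.95% of 27025 genes with a window. The ETS letters CCGGAAG were present for 9 of 23, or 39.1%, against 9.93% of all genes with a window. The YY1 letters AAGATGGCG were present for 2 (8.7%, against 1.64%) and the estrogen-related receptor letters AAGGTCA for 5 (21.7%, against 5.38%). A match is a stretch of letters and was not shown to be a bound site. Stretches around the matches of 6 genes are given to show the letters in place, with the motif, on either strand, in capitals. The ETS letters occurred in genes of all 3 complexes, the NRF1 letters in complex III and ATP synthase, the estrogen-related receptor letters in complex II and ATP synthase, and the YY1 letters in ATP synthase genes only, among the 23 windows searched. In Atp5g2 and Uqcrc1 the capitals hold a pair of overlapping NRF1 matches on opposite strands. No other matches in these stretches overlap. Sdhb lies at chr4:140961267-140961293 (plus strand), Uqcrc1 at chr9:108936668-108936697 (plus), Uqcr11 at chr10:80406808-80406897 (minus), Atp5g2 at chr15:102671070-102671099 (minus), Atp5j at chr16:84835021-84835074 (minus) and Atp5j2 at chr5:145191500-145191528 (minus).
Sdhb, ETS: ctcggagaaaCCGGAAGcggccttcca
Uqcrc1, NRF1: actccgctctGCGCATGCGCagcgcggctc
Uqcr11, ETS then NRF1: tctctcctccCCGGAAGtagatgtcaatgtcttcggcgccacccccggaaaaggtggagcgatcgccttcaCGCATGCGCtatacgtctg
Atp5g2, NRF1: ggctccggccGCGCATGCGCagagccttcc
Atp5j, YY1 then ETS: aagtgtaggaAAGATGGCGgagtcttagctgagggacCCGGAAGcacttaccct
Atp5j2, YY1: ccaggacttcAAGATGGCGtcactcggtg

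Kdm1a, the targeted gene, served as a check of the labels. It had 10.7, 11.8 and 11 FPKM in LSD1-CKO libraries, against 30, 29.7 and 22.8 FPKM in control libraries (log2 change -1.22, SE 0.11, limma adjusted p = 0.00274). An exact permutation test of the group means, two-sided, gave p = 0.1, the smallest value that 3 against 3 libraries allow. Kdm1a is at chr4:136550540-136602723. Whole reads recovered from the steps of the FPKM scale summed to between 17898946 and 20076028 per library. A member gene held between 168 reads (the lowest library of Atp5s) and 77625 reads (the highest of Atp5b), so counting error is small for all members but Atp5s. Control replicate 3 stood apart from the other controls and had the lowest library weight, 0.462. LSD1-CKO replicate 3 was the only library listed at 0 for the Y-linked gene Ddx3y, and its Xist level was 12.1 FPKM, against at most 1.11 FPKM in the other libraries.

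None of the 30 genes changed past the threshold, an adjusted p under 0.05 in limma's test on log2(FPKM + 1) with Benjamini-Hochberg adjustment over all 14149 genes. Over all genes tested 2.37% were called, 270 (1.91%) higher and 66 (0.466%) lower in LSD1-CKO ventricles. The smallest adjusted p of a member was 0.106, for Sdhb. At an unadjusted p under 0.05 there were 14 members, all with lower levels in LSD1-CKO, against 7.4% of all genes lower at that limit and 16.5% of the genes that average 50 FPKM or more. Limma's voom on the recovered reads called 4.36% of 14143 genes and again 0 members, with 11 members at an unadjusted p under 0.05 and lower, against 3.91% of those genes. The count of 14 fell to 6 without control replicate 1 and to 5 without LSD1-CKO replicate 3. The share of all genes at that limit is not given for these fits, which use fewer libraries. Genes called over the whole table also fell without control replicate 1, to 146 higher and 28 lower.

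The members nevertheless lay mostly on the same side of the control values. The fitted change was below 0 for 29 of 30, against 54.1% of all genes, and the median was -0.22 on the log2 scale, against -0.01 over all genes tested. In 17 members every LSD1-CKO library lay below every control library, against 10.4% of all genes, and in 0 members every LSD1-CKO library lay above, against 11% of all genes. Highly expressed genes as a class lay on that side too: among 1130 genes that averaged 50 FPKM or more, a limit chosen after the values were seen, 76.7% had a fitted change below 0, 21.1% had every LSD1-CKO library below every control library, and the median was -0.10. The 28 members in that class had a median of -0.21. Summed over the 30 genes the level was 8080, 8316 and 7889 FPKM in LSD1-CKO libraries, against 9775, 9160 and 9292 FPKM in control libraries. The sums do not overlap. The share of all FPKM was 2.06%, 2.26% and 2.06% in LSD1-CKO libraries and 2.41%, 2.36% and 2.23% in control libraries, and these shares overlap, since LSD1-CKO replicate 2 lies above control replicate 3.

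**Figure D1:**
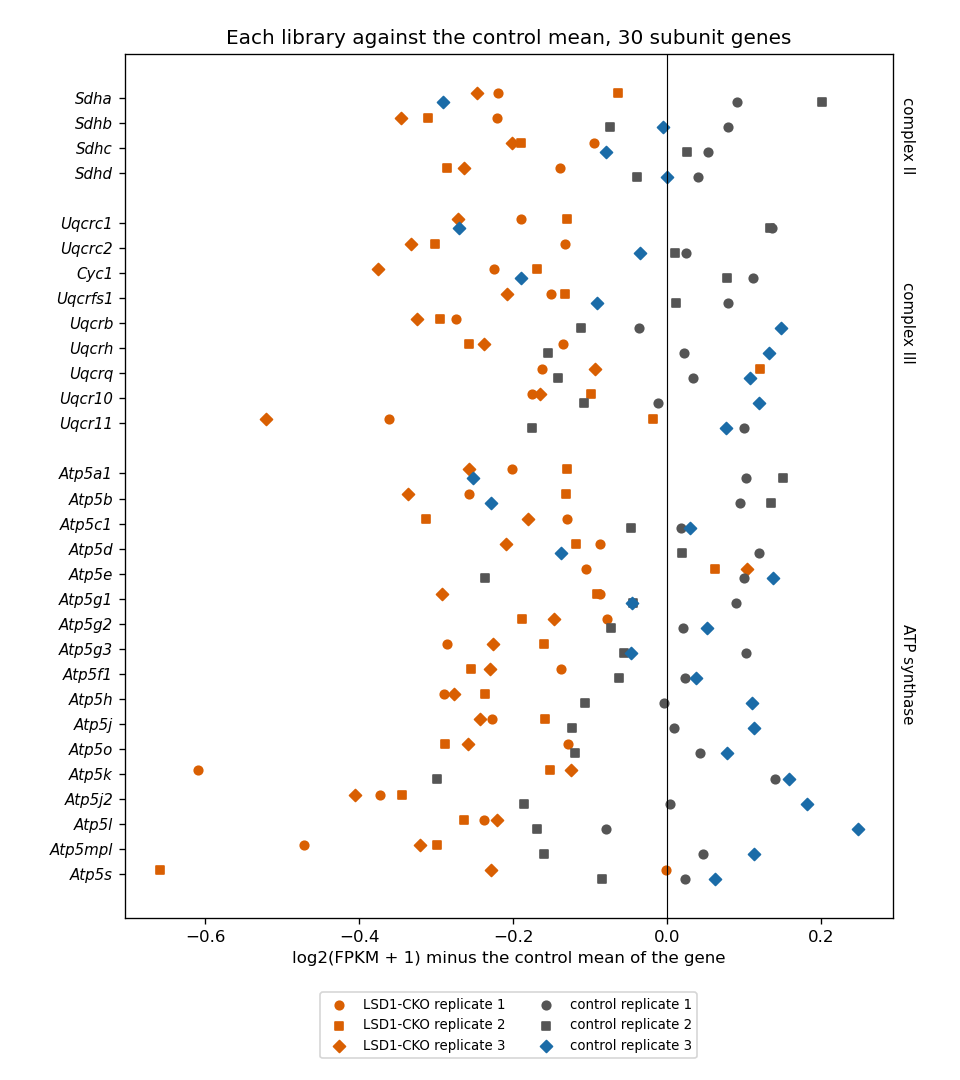
Each of the 6 libraries is plotted as log2(FPKM + 1) minus the control mean of the gene, for the 30 genes in order of complex and role, with LSD1-CKO libraries in the upper row of each gene and control libraries in the lower row (control replicate 3 in blue). Every LSD1-CKO point lies left of every control point in 17 genes, and control replicate 3 lies among the LSD1-CKO points in Uqcrc1, Cyc1, Uqcrq, Atp5a1, Atp5b and Atp5d and left of them in Sdha.

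The size of these differences depended on how the libraries were scaled, and so did the count of members lower at an unadjusted p under 0.05, which was 5 after rescaling to TPM, 7 without haemoglobin and mitochondrially encoded genes and 2 after quantile normalization. The deposited values give a median-of-ratios size factor of 1 in each of the 6 libraries, so by that measure they were already level. The deposited scale does not follow the recovered read totals alone. It implies a total of 18456520 reads in control replicate 1, against 19566272 recovered. In LSD1-CKO replicate 2 it implies 19406913, against 19310980 recovered. After rescaling to TPM, which gives every library the same sum, the members' median was -0.13 and that of all genes 0.06. There 12 members had non-overlapping groups. After rescaling without haemoglobin and mitochondrially encoded genes the members' median was -0.14 and that of all genes 0.04, and 10 members had non-overlapping groups. Quantile normalization gave a median of -0.10, against -0.02 for all genes, with 26 members fitted below 0 and 9 with every LSD1-CKO library below every control library. The shares of all genes that met these limits under each scaling are not given here.

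Complex II had the member with the smallest p. Sdhb encodes the iron-sulphur subunit that carries electrons from the flavin towards ubiquinone, and lies at chr4:140961203-140979193 (GRCm38, plus strand). It had 208, 195 and 190.3 FPKM in LSD1-CKO libraries, against 256, 229.9 and 241 FPKM in control libraries. The groups do not overlap, and the means were 198 ± 8.91 and 242 ± 13.1 FPKM (SD, n = 3 each). The fitted change was -0.29 (SE 0.07, 95% interval -0.47 to -0.12, limma adjusted p = 0.106), so the LSD1-CKO mean was 0.815 of the control mean. The ETS letters printed above for Sdhb lie in its promoter window.

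The membrane anchor of complex II, which holds the haem group and the ubiquinone site, is made by Sdhc and Sdhd. Sdhd had 348, 314 and 319 FPKM in LSD1-CKO libraries, against 394, 373 and 383 FPKM in control libraries (change -0.23, SE 0.08, limma adjusted p = 0.193). Sdhc had 103, 96.6 and 95.8 FPKM in LSD1-CKO libraries, against 114, 112 and 104 FPKM in control libraries (change -0.16, SE 0.07, limma adjusted p = 0.302). In both genes the groups do not overlap, though the lowest control and the highest LSD1-CKO value of Sdhc are nearly equal. Sdha, the flavin-bearing subunit that binds succinate, had 106, 118 and 104 FPKM in LSD1-CKO libraries, against 131, 142 and 100.3 FPKM in control libraries. Here control replicate 3 was the lowest of all 6 libraries and the groups overlap (change -0.18, SE 0.13, limma adjusted p = 0.553). Sdhd stood first and Sdhb next in every library of both genotypes on the deposited scale. Per annotated mRNA length the order of mean levels was Sdhb (431 FPKM), Sdhd (356 FPKM), Sdha (166 FPKM) and Sdhc (107 FPKM), because the deposited scale divides by all exon bases of a gene.

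In complex III the lowest ratio belonged to Uqcrb, a small subunit at the ubiquinone-binding side. Uqcrb (chr13:66900617-66905378, minus strand) had 237, 234 and 229 FPKM in LSD1-CKO libraries, against 279.9, 266 and 318 FPKM in control libraries. The LSD1-CKO libraries lie close together and below all controls (ratio of means 0.81, change -0.30, SE 0.08, limma adjusted p = 0.136). Uqcrc2, one of the core proteins that face the matrix, had 233, 208 and 203 FPKM in LSD1-CKO libraries, against 260.3, 258 and 249.6 FPKM in control libraries. Its groups do not overlap either (change -0.26, SE 0.08, limma adjusted p = 0.165). Of the exon bases of Uqcrc2, 19.7% lie under Pdzd9 on the other strand, and the library kit does not mark strand, so reads there cannot be assigned.

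The other core protein, Uqcrc1, had 144, 150.3 and 136 FPKM in LSD1-CKO libraries, against 181, 181 and 136 FPKM in control libraries. Control replicates 1 and 2 lie above all LSD1-CKO libraries, while control replicate 3 lies at the level of LSD1-CKO replicate 3 (change -0.20, SE 0.12, limma adjusted p = 0.456). Cyc1, the cytochrome c1 that hands electrons to cytochrome c, showed the same layout, with 237, 246 and 213 FPKM in LSD1-CKO libraries against 299, 292 and 243 FPKM in control libraries. Its control replicate 3 lies just under LSD1-CKO replicate 2 (change -0.26, SE 0.10, limma adjusted p = 0.279). Uqcrfs1 encodes the Rieske iron-sulphur protein. It had 349.5, 354 and 336 FPKM in LSD1-CKO libraries, against 410, 391 and 364 FPKM in control libraries, with no overlap (change -0.16, SE 0.08, limma adjusted p = 0.349).

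Among the remaining small subunits of complex III no gene had separate groups. Uqcrh, the acidic hinge protein beside cytochrome c1, had 416, 382 and 387 FPKM in LSD1-CKO libraries, against 464, 410.3 and 501 FPKM in control libraries. Uqcr11 had 246, 312 and 220.2 FPKM in LSD1-CKO libraries, against 339, 279.9 and 334 FPKM in control libraries. In both genes a single library carries the overlap: control replicate 2 in Uqcrh lies just under LSD1-CKO replicate 1, and LSD1-CKO replicate 2 in Uqcr11 lies above control replicate 2. Uqcr10 had 639, 674 and 644 FPKM in LSD1-CKO libraries, against 716, 669.8 and 785 FPKM in control libraries, and overlaps by the same control replicate 2. Uqcrq was the member of complex III nearest to no difference, with 184, 224 and 193 FPKM in LSD1-CKO libraries against 211, 186 and 222 FPKM in control libraries (change -0.05, 95% interval -0.28 to 0.19). LSD1-CKO replicate 2 was its highest library of all 6. The sign of the Uqcrq change turned under 6 of the alternatives listed in the closing section, with values up to 0.07. The 3 complex III genes highest per annotated mRNA length were Uqcrh at 965 FPKM, Uqcr10 at 926 FPKM and Uqcrb at 427 FPKM, leaving aside Uqcrq, whose annotated mRNAs of unequal length put it anywhere from 245 to 918 FPKM.

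**Figure D2:**
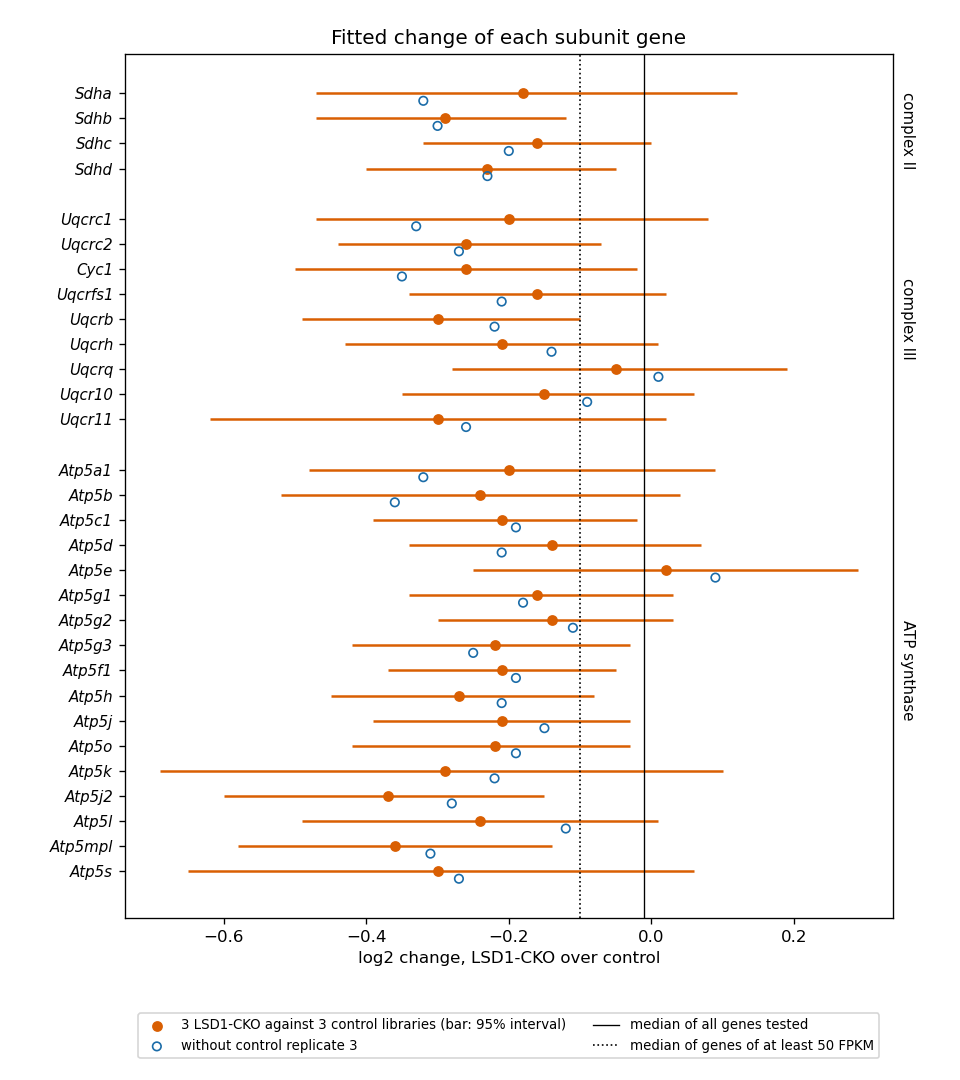
The fitted log2 change, LSD1-CKO over control, of each of the 30 genes is drawn with its 95% interval, beside the change without control replicate 3 (open blue circles). All points but Atp5e lie left of 0, from -0.37 for Atp5j2 to 0.02 for Atp5e, and leaving out control replicate 3 moves the long genes such as Sdha, Uqcrc1 and Atp5b further left.

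ATP synthase had 11 of 17 genes with every LSD1-CKO library below every control library, and a median change of -0.22. The share with such groups was 10.4% of all genes tested and 21.1% of genes averaging 50 FPKM or more. By part of the enzyme, the count of genes with separate groups was 4 of 4 in the peripheral stalk, 3 of 3 in the c ring, 3 of 4 among the small membrane subunits, 1 of 3 in the central stalk and 0 of 2 in the catalytic head. These counts hold for each gene's own entry. Summed with their pseudogene copies, Atp5g2 of the c ring and Atp5l of the small membrane subunits had overlapping groups. The differences between parts were not tested.

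The small membrane subunits sit where ATP synthase forms the dimers that shape the cristae, and they held the 2 lowest ratios of LSD1-CKO to control means among the 30 members. Atp5j2 (chr5:145183698-145192062, minus strand) encodes subunit f. It had 154, 157 and 151 FPKM in LSD1-CKO libraries, against 200.5, 176 and 227 FPKM in control libraries. The LSD1-CKO libraries are nearly equal and below all controls, at 0.766 of the control mean (change -0.37, SE 0.10, 95% interval -0.60 to -0.15, limma adjusted p = 0.114). Atp5mpl (chr12:111961375-111966977, minus strand), which encodes a small proteolipid, had 212, 239.7 and 236 FPKM in LSD1-CKO libraries, against 305, 264 and 319 FPKM in control libraries. Again there is no overlap (ratio of means 0.775, change -0.36, SE 0.10, limma adjusted p = 0.114). Atp5l, for subunit g, had 36.5, 35.8 and 36.9 FPKM in LSD1-CKO libraries, against 40.9, 38.3 and 51.5 FPKM in control libraries (change -0.24, SE 0.11, limma adjusted p = 0.322). Atp5k, for subunit e, had 193, 266 and 271 FPKM in LSD1-CKO libraries, against 326, 239.9 and 329.9 FPKM in control libraries. Its groups overlap, since LSD1-CKO replicate 1 lies far below all others and control replicate 2 lies among the knockouts (change -0.29, SE 0.17, limma adjusted p = 0.436).

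The peripheral stalk holds the catalytic head still while the ring turns, and all 4 of its genes had separate groups, with changes between -0.27 and -0.21. Atp5h (subunit d) had 268, 278 and 270 FPKM in LSD1-CKO libraries, against 327, 304 and 354 FPKM in control libraries (change -0.27, SE 0.08, limma adjusted p = 0.155). Atp5f1 (subunit b) had 184, 169.5 and 172 FPKM in LSD1-CKO libraries, against 206, 194 and 208 FPKM in control libraries (change -0.21, SE 0.07, limma adjusted p = 0.202). The gap between the groups was wider in Atp5h. Atp5j (coupling factor F6) had 114, 119 and 113 FPKM in LSD1-CKO libraries, against 134, 122 and 144 FPKM in control libraries. Atp5o (the oligomycin sensitivity protein at the top of the stalk) had 246, 220.5 and 225 FPKM in LSD1-CKO libraries, against 278, 248 and 284 FPKM in control libraries. In these last genes LSD1-CKO and control meet closely, at control replicate 2. Reads over both are shared with other annotation, since 47.9% of the exon bases of Atp5o lie under a second Atp5o entry and antisense genes, and 12.7% of those of Atp5j lie under Gabpa, the gene for an ETS family factor on the other strand.

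The c ring is made from the same mature peptide whichever of 3 genes supplies it, since Atp5g1, Atp5g2 and Atp5g3 differ in the presequence that is removed on import. Atp5g3 had 439, 479.7 and 458 FPKM in LSD1-CKO libraries, against 576, 516 and 519 FPKM in control libraries (change -0.22, SE 0.08, limma adjusted p = 0.247). Atp5g2 had 233, 216 and 223 FPKM in LSD1-CKO libraries, against 250.1, 234 and 256 FPKM in control libraries. Atp5g1 had 78.4, 78.2 and 67.9 FPKM in LSD1-CKO libraries, against 88.7, 80.8 and 80.8 FPKM in control libraries. All 3 genes had every LSD1-CKO library below every control library, by a narrow margin in Atp5g2 and Atp5g1 (changes -0.14 and -0.16). Of the reads over the 3 genes, Atp5g3 took 55.3%, 58.4% and 58.6% in LSD1-CKO libraries and 59.5%, 58.8% and 57.8% in control libraries. These shares overlap, as do those of Atp5g1, at 22.2%, 21.4% and 19.6% in LSD1-CKO and 20.6%, 20.7% and 20.3% in control libraries, and those of Atp5g2, at 22.5%, 20.2% and 21.9% in LSD1-CKO and 19.9%, 20.5% and 21.9% in control libraries.

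The catalytic head of ATP synthase comes from the 2 members highest on the deposited scale, and control replicate 3 was low in both, as in Sdha. Atp5b, for the beta subunit that makes ATP, had 778, 849 and 736 FPKM in LSD1-CKO libraries, against 993, 1021 and 793 FPKM in control libraries (change -0.24, SE 0.12, limma adjusted p = 0.375). Atp5a1, for the alpha subunit, had 774, 813 and 744 FPKM in LSD1-CKO libraries, against 955, 987 and 746 FPKM in control libraries (change -0.20, SE 0.12, limma adjusted p = 0.477). In both, control replicates 1 and 2 lie well above all LSD1-CKO libraries and control replicate 3 lies among them. Per annotated mRNA length Atp5b averaged 1900 FPKM and Atp5a1 1060 FPKM, and Atp5g3 of the c ring lay between them at 1500 to 1520 FPKM.

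The central stalk turns with the ring. Its gamma subunit gene, Atp5c1, had 412, 363 and 398 FPKM in LSD1-CKO libraries, against 457, 436 and 460.4 FPKM in control libraries, with no overlap (change -0.21, SE 0.08, limma adjusted p = 0.264). Atp5d, for the delta subunit, had 281, 275 and 258 FPKM in LSD1-CKO libraries, against 324, 302 and 271 FPKM in control libraries, and overlaps through control replicate 3. Atp5e, for the epsilon subunit, was the only member with a fitted change above 0 (0.02, 95% interval -0.25 to 0.29). It had 219, 246 and 254 FPKM in LSD1-CKO libraries, against 253, 200.2 and 259.7 FPKM in control libraries, so the values of both genotypes are interleaved, and its sign turned without control replicate 2 (-0.10) and without LSD1-CKO replicate 3 (-0.02). Atp5s, for factor B, an accessory protein, was the only scarce member, with 7.27, 4.25 and 6.07 FPKM in LSD1-CKO libraries against 7.41, 6.81 and 7.65 FPKM in control libraries (change -0.30, SE 0.15, limma adjusted p = 0.394).

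Control replicates 2 and 3 both differed from the other controls by the length of the coding sequence, in opposite directions. Length classes are given here for control replicate 3 only. In the 6 members with at least 900 coding bases (Sdha, Uqcrc1, Uqcrc2, Cyc1, Atp5a1 and Atp5b; the limit was chosen after the values were seen) it lay below the mean of the other controls in all 6, with a median of -0.36 on the log2 scale. In the 24 shorter members it lay above them in 17, with a median of 0.11. The lowest single ratio to control replicates 1 and 2 was 0.736, for Sdha, and the highest was 1.30, for Atp5l. Across the 30 members the rank correlation (Spearman's rho) of this ratio with coding length was -0.801. Across 1022 genes of at least 50 FPKM it was -0.55. Control replicate 2 against the other controls gave 0.865 over the members and 0.618 over the 1022 genes, so it followed coding length no less closely than control replicate 3. Control replicate 1 gave 0.224 and 0.0916. The control ratios share libraries and are not independent of each other. Each LSD1-CKO library against the other LSD1-CKO libraries gave 0.473, -0.141 and -0.46 over the members, and -0.0766, 0.0698 and -0.0038 over the 1022 genes. All are descriptions over genes of the same libraries, which are not independent.

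Separate groups were less frequent among the longer members, a difference that was not tested. Every LSD1-CKO library lay below every control library in 16 of the 24 shorter members but in 1 of the 6 longer ones, Uqcrc2, although the median change was about as large in both classes (-0.215 in the shorter and -0.22 in the longer). In the other longer members only control replicate 3 overlaps the LSD1-CKO libraries, so these counts restate its low values there. Shares of separate groups by coding length over all genes are not given here. Without control replicate 3 the longer members had a median change of -0.325 and the shorter ones -0.205. The rank correlation of the fitted change with coding length was then -0.551 over the members, against 0.0781 with all libraries. Over the 1022 genes of at least 50 FPKM it was -0.0863, against 0.193. Every LSD1-CKO library then lay below both remaining controls in 23 of the 30 members, against 21.8% of 14153 genes tested and 39.5% of the genes averaging 50 FPKM or more. An unadjusted p under 0.05 with a lower level was found for 17 members, against 10.6% and 20.9% of those genes. Still 0 members were called, against 2.78% of genes, and the smallest adjusted p was 0.0595, for Uqcrc1. Uqcrc1 was followed by Cyc1 (0.0807) and Sdha (0.0909), which with all libraries had adjusted p-values of 0.279 and 0.553. What sets control replicate 3 apart was not tested.

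**Figure D3:**
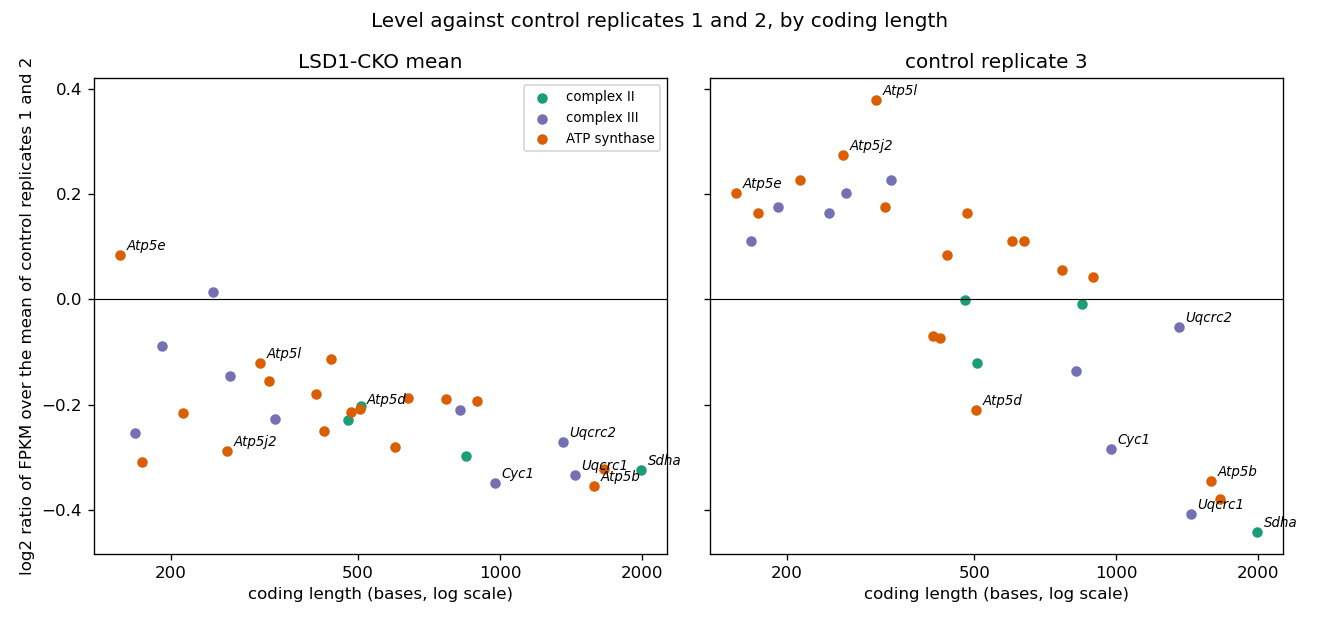
The log2 ratio of FPKM to the mean of control replicates 1 and 2 is plotted against coding length (log scale) for the 30 genes, with the mean of the 3 LSD1-CKO libraries on the left and control replicate 3 on the right. Control replicate 3 lies between -0.44 and -0.05 in the 6 genes of at least 900 coding bases and mostly above 0 in the shorter ones, while the LSD1-CKO mean lies below 0 in all genes but Atp5e and Uqcrq.

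Several of these genes have processed pseudogenes so similar that the authors' counting could split their reads. Copies of at least 95% identity over at least 100 aligned bases were found for 10 members. For Atp5l, 9 copies took 29.8% of the summed reads. One of them, Gm10221 on chromosome 5, matches at 100% over 309 aligned bases of an annotated mRNA of 544 bases. Gm10221 was listed at 341, 314 and 304 FPKM in LSD1-CKO libraries, against 354, 290.5 and 443 FPKM in control libraries. For Atp5g1 the copy Gm10039 took 23.4% of the reads, and for Atp5h 4 copies took 14.0%. In Uqcrb, Uqcr11 and Atp5g2 copies took 4.89%, 4.72% and 2.19%. Summing each gene with its copies moved the ratio of LSD1-CKO to control means little: Atp5l had 0.848 with copies and 0.836 alone, Atp5g1 0.895 and 0.897, Atp5h 0.837 and 0.829, Uqcrb 0.806 and 0.81. The groups then overlapped in Atp5l and Atp5g2, so the separate groups of those genes hold for the gene's own entry only.

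**Figure D4:**
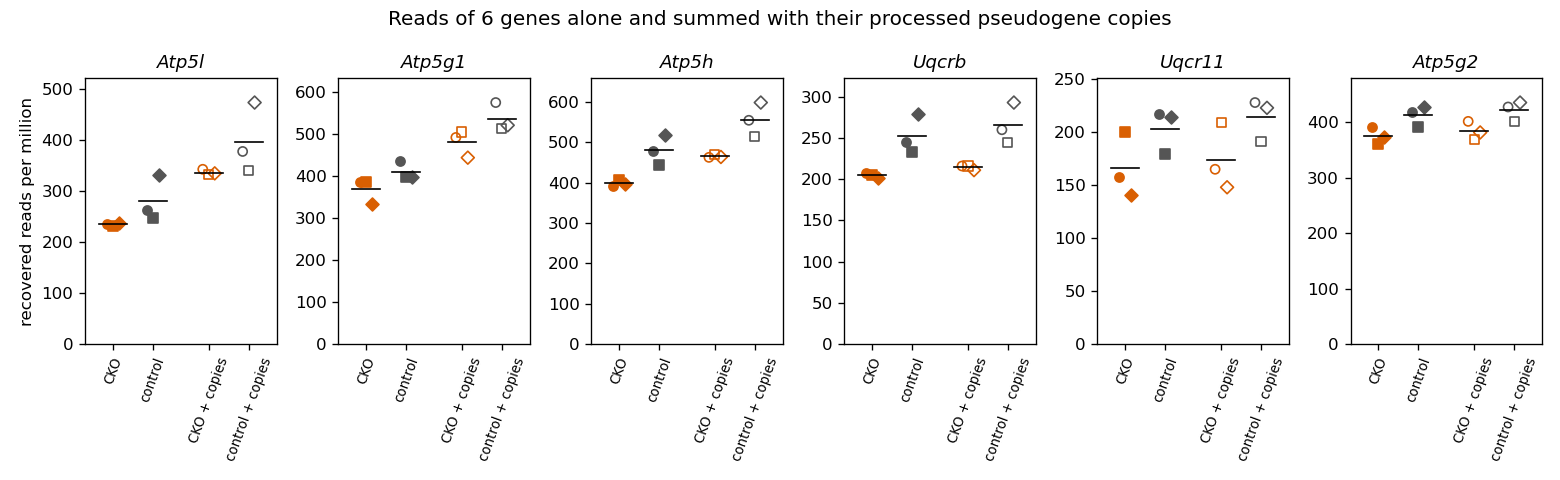
Recovered reads, scaled to the library total, are shown for 6 genes alone (filled) and summed with their processed pseudogenes (open), for the 3 LSD1-CKO libraries (orange) and the 3 control libraries (grey), with the group mean as a bar. As a share of reads copies add most to Atp5l, where the summed values run from 332 to 343 in LSD1-CKO and from 340 to 474 in control libraries, and the LSD1-CKO mean stays below the control mean in all 6.

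The partners that the mitochondrial genome supplies to these complexes did not separate the genotypes. Cytochrome b (mt-Cytb) averaged 3690 ± 746 FPKM in LSD1-CKO and 4440 ± 1110 FPKM in control ventricles (SD, n = 3 each), and mt-Atp6 averaged 89 ± 36.8 FPKM in LSD1-CKO and 102 ± 32.1 FPKM in control ventricles. Both overlap widely. Usmg5, a small subunit gene of ATP synthase that the symbol rule does not take, averaged 1200 ± 22.9 FPKM in LSD1-CKO and 1480 ± 205 FPKM in control ventricles, with no overlap (change -0.29, limma adjusted p = 0.291).

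Assembly factors of the 3 complexes lay nearer to 0 than the subunits. None of the 4 complex II factors, 6 complex III factors or 6 ATP synthase factors and inhibitors tested was called, and their medians were -0.05, -0.12 and -0.02. The last list is counted here without Usmg5, which was on it. The values with the smallest p were those of Sdhaf4, at 30.5 ± 3.75 FPKM in LSD1-CKO and 34.9 ± 3.26 FPKM in control ventricles, Uqcc3, at 30.8 ± 0.771 FPKM in LSD1-CKO and 35 ± 2.49 FPKM in control ventricles, and Tmem70, an ATP synthase assembly protein, at 48.7 ± 1.24 FPKM in LSD1-CKO and 55.6 ± 2.45 FPKM in control ventricles (SD, n = 3 each). The last 2 had separate groups. Most of these assembly factors averaged under 50 FPKM, whereas 28 of the 30 members averaged 50 FPKM or more. Genes at or above that level had a median of -0.10, against -0.01 over all genes tested. Levels were not matched, and whether assembly factors and subunits differ was not tested.

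Other mitochondrial genes sat beside the members with similar medians. The 36 nuclear subunits of complex I had a median change of -0.17, with 0 called, 11 with every LSD1-CKO library below every control library and 1, Ndufa12, with every one above (76.6 ± 21.6 FPKM in LSD1-CKO and 42.9 ± 7.99 FPKM in control ventricles, limma adjusted p = 0.109). Over all genes tested 10.4% had every LSD1-CKO library below and 11% had every one above. Among 16 nuclear subunits of complex IV the median was -0.18 and Cox6b2, a subunit isoform best known from testis, rose, to 18.6 ± 1.33 FPKM in LSD1-CKO against 9.04 ± 0.266 FPKM in control ventricles (change 0.97, limma adjusted p = 0.00139). The 14 TCA cycle genes had a median of -0.20 and 0 calls. Dld, the dihydrolipoamide dehydrogenase shared by the 2-oxoacid dehydrogenases, had the smallest p of that list, at 68.3 ± 3.77 FPKM in LSD1-CKO and 82.9 ± 3.74 FPKM in control ventricles (limma adjusted p = 0.106). The 11 genes for electron carriers (ubiquinone synthesis and cytochrome c) had a median of -0.15, the 9 cristae genes -0.16, and the 7 nucleotide and phosphate carriers -0.11, each with 0 calls. The 13 mitochondrially encoded mRNAs had a median of -0.24, which was -0.07 without control replicate 3, and in 0 of them were the groups separate.

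Of 14 regulators of mitochondrial biogenesis 0 were called, and the median was -0.06. Tfam, which packages and transcribes mitochondrial DNA, averaged 15.8 ± 0.855 FPKM in LSD1-CKO and 17.9 ± 0.652 FPKM in control ventricles (limma adjusted p = 0.251). Tfb1m, a mitochondrial rRNA methyltransferase, averaged 4.84 ± 0.252 FPKM in LSD1-CKO and 5.72 ± 0.407 FPKM in control ventricles (limma adjusted p = 0.252). Both had separate groups.

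**Figure D5:**
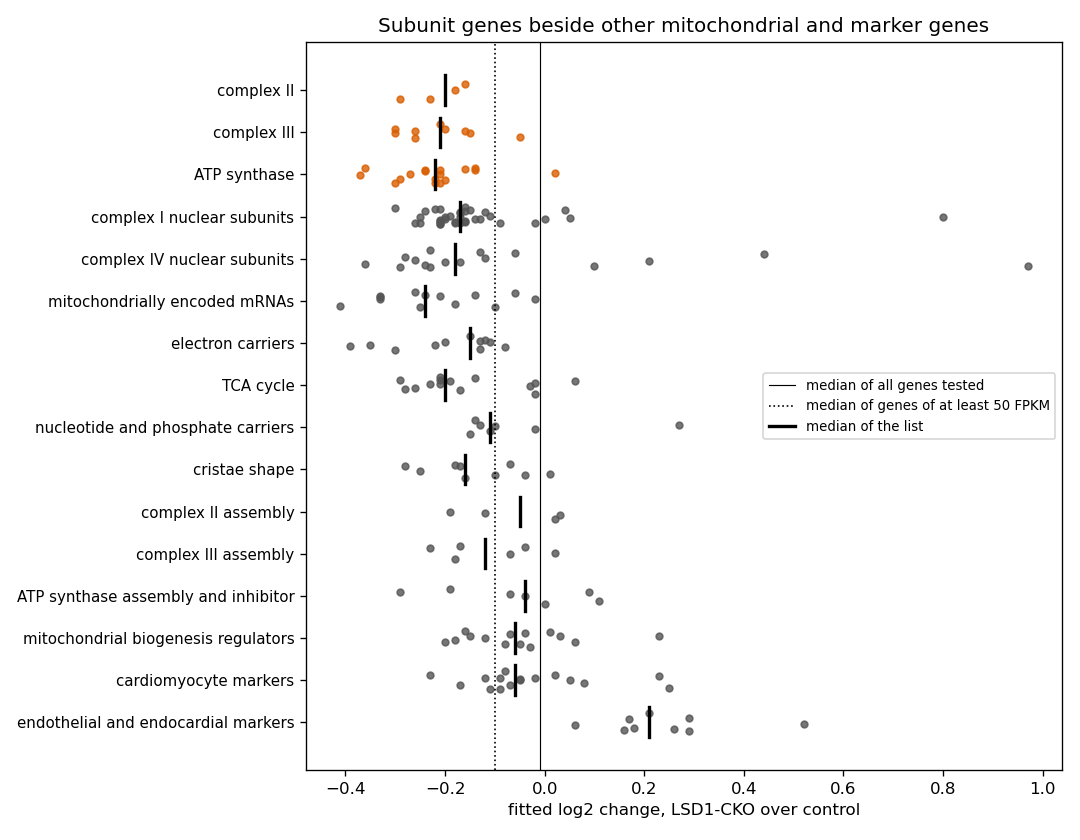
Each point is the fitted log2 change, LSD1-CKO over control, of 1 gene, in rows for the 3 complexes (orange) and for lists of other mitochondrial and marker genes (grey), with the median of each row as a thick bar. The medians of complexes II, III and ATP synthase (-0.20, -0.21 and -0.22) lie left of those of all genes tested (-0.01) and of genes of at least 50 FPKM (-0.10), and near those of complexes I and IV, whose rows also hold Ndufa12 at 0.80 and Cox6b2 at 0.97.

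Markers of the cell types of the ventricle are given beside the members, and their part in the result was not tested. All 16 cardiomyocyte markers were detected in every library, 0 were called, the median change was -0.06, and their summed level was 16450 to 17990 FPKM in LSD1-CKO and 15270 to 19530 FPKM in control libraries. The 9 endothelial and endocardial markers all had a fitted change above 0, with a median of 0.21 and 0 calls, and summed to 174, 205 and 214 FPKM in LSD1-CKO libraries and 148, 147 and 204 FPKM in control replicates 1, 2 and 3. Erythroid markers summed to 7920 to 16540 FPKM in LSD1-CKO and 8053 to 18020 FPKM in control libraries. The epicardial, mesenchyme and macrophage lists had medians of 0.03, -0.05 and 0.09 with 0 calls each, and the erythroid median was 0.03. Without control replicate 3 the medians were -0.12 (cardiomyocyte), 0.37 (endothelial and endocardial) and 0.32 (erythroid). Those of the epicardial, mesenchyme and macrophage lists were then 0.07, 0.02 and 0.19. No marker among the cardiomyocyte, endothelial and erythroid lists was listed at 0 in any library.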

How the data were processed

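Per the labels' protocols, TRIzol was used to isolate the RNA and a NEBNext Ultra kit, which does not mark strand, to build the libraries. HISAT2 2.0.5 and featureCounts 1.5.0-p3 stand in the submitters' processing notes beside CASAVA, fastp and mm10. The authors deposited FPKM for 54532 gene IDs, without read counts, and the annotation release behind them is not given in the sources used here. GENCODE M21 (GRCm38, which mm10 denotes) matched 54495 of the IDs, and 37 were not matched.

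FPKM times the summed exon length gave whole reads (within 0.02 of a whole number) for 98.1% to 98.5% of genes under 30 reads. One read in 1 kb is worth 0.0515 to 0.0562 FPKM.

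The 14149 genes averaging 0.5 FPKM or more entered a two-sided limma 3.58.1 fit (R 4.3.3) on log2(FPKM + 1). It had genotype as its only term and a mean-variance trend, and p-values were adjusted by Benjamini-Hochberg. That scale understates changes of low genes. The fit was also run on simulated data with planted changes larger than those of any member. That run does not show whether changes as small as the members' would be called. Kdm1a was also compared by an exact permutation test. Copies were found with blastn 2.17.0, tables were built in pandas 2.3.3, scipy 1.17.1 and numpy 2.4.6 under Python 3.11.15, and figures in matplotlib 3.10.9.

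All member genes are named, and of each other list the called genes or else at most 2 with the smallest p. Members and lists were chosen with earlier results of these data known. Dmac2l, on the assembly list, is a later symbol of the member Atp5s. Alternatives changed the pseudocount (0.1 and 5), the filter on low values (none, 5 and 50 FPKM), the scaling, the library weights, the trend, the replicate block and each library in turn.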

Additional observations from a re-analysis of the deposited data

How the results depend on the processing

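Over 19 alternatives 0 members were called, the smallest adjusted p being 0.0595, and 558 of 568 member results kept their direction and side of the threshold. The other 10 changed sign: Uqcrq after TPM rescaling (0.04), quantile normalization (0.07), rescaling without haemoglobin and mitochondrial genes (0.03), voom (0.01), without control replicate 3 (0.01) and without LSD1-CKO replicate 1 (0.01); Atp5d (0.01) and Atp5g2 (0.02) after quantile normalization; Atp5e without control replicate 2 (-0.10) and without LSD1-CKO replicate 3 (-0.02), though it reached 0.09 without control replicate 3. The cause was not tested. The filter, trend, replicate block and median-of-ratios settings leave a member's fitted change as in the main fit. Its direction could not turn there, and the 558 include those results. The members' median moved to -0.13 (TPM), -0.10 (quantile), -0.14 (without haemoglobin and mitochondrial genes) and -0.16 (voom). The members lower at an unadjusted p under 0.05 numbered 5 (TPM), 2 (quantile) and 7 (without haemoglobin and mitochondrial genes), and 5 to 17 as libraries were left out in turn (17 without control replicate 3, 6 without control replicate 1, 5 without LSD1-CKO replicate 3). Those lower in every LSD1-CKO library numbered 12 (TPM), 9 (quantile), 10 (without haemoglobin and mitochondrial genes) and 17 to 23 leaving out each library. For these counts the share over all genes is given only without control replicate 3. It was 10.6% for the p limit and 21.8% for separate groups. Members fitted below 0 numbered 28 to 30 and the median ran from -0.24 to -0.20 when libraries were left out, and Kdm1a from -1.35 to -1.16.

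Genes called over the whole table, 270 higher and 66 lower, numbered 110 and 12 with no filter, 132 higher from 5 FPKM, 11 and 8 from 50 FPKM (chosen after seeing the data), 40 lower as TPM, 112 lower with library weights and 546 higher by voom. They ran from 109 to 281 higher and from 23 to 113 lower as each library was left out. The labels do not say that same-numbered samples are pairs, so the main fit did not pair them. Same-numbered samples deviated with correlations of -0.0021, 0.14 and 0.164. Those of other numbers ran from -0.189 to 0.0798, which does not settle whether the numbers pair samples. With the replicate number as a block 220 genes were higher and 64 lower, 0 members were called and 18 had an unadjusted p under 0.05. Depth limits Atp5s alone among the members.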
